A study of Mus musculus with 6 samples.

Results

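The genes described here encode Lrp1 and a set of scavenger or endocytic receptors, with the chaperone of Lrp1, in RAW 264.7 cells, a mouse macrophage line. They are the 8 rows of the deposited table named Lrp1, Lrpap1, Msr1, Marco, Scarb1, Cd68, Stab1 and Mertk, of 34745 genes in all. They were chosen by name and by family, with earlier results of these data known. Of 6 libraries, 3 came from cells given BPAP (bisphenol AP), a relative of bisphenol A, and 3 from cells given the solvent DMSO, and the labels name no genetic change in either group. The labels give no dose, no exposure time and no separate culture for each replicate, so p-values reflect only how far these libraries scatter, and that scatter may be technical. The question of the series is how macrophages respond to BPAP in the setting of lung fibrosis caused by bleomycin, and the RNA is from the cell line alone.

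Scavenger and endocytic receptors let macrophages clear modified lipoproteins, proteases, matrix fragments and dying cells. They bind a ligand at the surface, carry it into endosomes and pass it to lysosomes, often returning to the surface for another round. LRP1, a giant member of the LDL receptor family, takes up many unrelated ligands and also signals through its short cytoplasmic tail. RAP, the product of Lrpap1, is an endoplasmic reticulum chaperone that keeps ligands off newly made LRP1 until it leaves that compartment. MSR1 and MARCO are class A scavenger receptors with collagen-like stalks, SCARB1 is the class B receptor for high-density lipoprotein, CD68 is a heavily glycosylated protein of late endosomes and lysosomes, stabilin-1 clears matrix fragments and secreted proteins, and MERTK is a receptor tyrosine kinase that recognises apoptotic cells.

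Of the 8 genes 6 were tested, and Lrp1 was the only one that passed in edgeR's quasi-likelihood test, falling to 41.2% of its DMSO level. Lrpap1, Msr1, Scarb1, Cd68 and Stab1 were tested and did not pass, with log2 fold changes between -0.33 and 0.11. Marco and Mertk had 0 counts in every library. Genes passed at a p of 0.05 after Benjamini-Hochberg adjustment across the 11711 tested genes, of which 31.7% did so, 16.2% higher and 15.5% lower in BPAP. One call among 6 tested members is therefore a share below that of all tested genes.

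A pair of sequences is shown because they stand before the start of the member that fell and of the most abundant member, which did not pass. Each is the run of 250 bases just before the RefSeq transcription start (GRCm38.p6), read 5′ to 3′ on the gene's own strand. Capitals mark every match to the motifs listed after them. The Lrp1 window is chr10:127621149-127621398 and the Cd68 window is chr11:69666171-69666420, both on the minus strand.
Lrp1: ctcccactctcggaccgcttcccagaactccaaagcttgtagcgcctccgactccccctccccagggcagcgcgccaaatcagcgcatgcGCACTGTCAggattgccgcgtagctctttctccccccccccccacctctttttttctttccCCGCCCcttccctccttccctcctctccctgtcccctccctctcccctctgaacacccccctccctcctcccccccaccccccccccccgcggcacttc
Cd68: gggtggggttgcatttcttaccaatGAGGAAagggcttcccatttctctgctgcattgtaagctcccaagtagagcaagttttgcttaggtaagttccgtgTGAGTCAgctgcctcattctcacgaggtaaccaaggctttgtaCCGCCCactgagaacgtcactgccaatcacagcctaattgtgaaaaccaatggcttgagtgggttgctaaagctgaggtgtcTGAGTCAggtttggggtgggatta

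Motifs of 8 kinds were searched on both strands, and no 2 matches overlapped in either window. They were the GC box GGGCGG, the PU.1 core GAGGAA, the E-box CACGTG, the cAMP response element TGACGTCA, the CEBP-ATF element TGATGNAA, the AP-1 site TGANTCA, the antioxidant element TGACNNNGC and the TATA box TATAAA. In the Lrp1 window, the antioxidant element matched once on the reverse strand, from 160 to 152 bases before the start, and the GC box once on the reverse strand, from 99 to 94 bases before it. In the Cd68 window the PU.1 core matched once, the AP-1 site 2 times and the GC box once. Of 32851 mouse promoter windows of this length, 32.7% held a GC box, 23.3% a PU.1 core, 10.2% an antioxidant element and 6.75% an AP-1 site. The E-box was in 6.02%, the cAMP response element in 1.55%, the CEBP-ATF element in 3.45% and the TATA box in 12.4% of windows, and in neither of these 2. The Lrp1 window was rich in G and C, at 67.2% with 13 CG dinucleotides, and the Cd68 window held 49.2% and 4. The median window held 52.4% and 6. Among the other members, Lrpap1 had 60.8% and 14, Mertk 63.6% and 7, Stab1 57.2% and 5, and Marco 47.6% and 0. RefSeq windows were matched for 6 of the 8 members, and not for Msr1 or Scarb1. A match says only that these letters occur in the window.

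Lrp1 is a long gene on chromosome 10 (ENSMUSG00000040249, 127538161 to 127621148, minus strand, GRCm38), with 88 merged exons that hold 17717 bases. Its counts in DMSO libraries 1, 2 and 3 were 13465, 16394 and 15777, and in BPAP libraries 1, 2 and 3 they were 6022, 6000 and 6183. As counts per 1000000 (CPM), with library sizes scaled by TMM, it stood at 1236, 1283 and 1111 in DMSO and at 490.1, 499.3 and 507.1 in BPAP. All BPAP libraries lay far below all DMSO libraries, and they differed from each other by only a few percent. Mean CPM fell 2.43-fold, from 1210 ± 88.6 (SD, n = 3) to 499 ± 8.55 (n = 3). By the quasi-likelihood test of edgeR the log2 fold change was -1.28 (SE 0.09, 95% confidence interval -1.47 to -1.09, adjusted p = 0.000106). Its share of all counts went from a mean of 0.122% to 0.0493%, and its rank by mean CPM among all genes of the table from 68 to 224.

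The fall of Lrp1 was large for an abundant gene in the fit without length correction, to which the ranks here belong. Its unadjusted p was the second smallest of the 11711 genes. Of the 2739 tested genes with a mean of at least 1000 counts, 8 were lower by at least as much, Lrp1 included. Over all tested genes 85 were, of which 74 passed the threshold. Genes that passed and were at least 2-fold lower made up 1.29% of those tested.

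Log2 fold changes in this comparison went down as gene length went up, and Lrp1 is among the longest genes. Its merged exons were longer than those of all but 135 tested genes and far longer than the median of 4296 bases. Among the longest 10% of tested genes, with merged exons of at least 9629 bases, 43.9% passed as lower and 2.48% as higher. The other 1167 genes of that set had a median log2 fold change of -0.29, and 10 of them were lower by at least as much as Lrp1. After correction for exon length and GC content, made by fitting a curve in every library, the log2 fold change of Lrp1 was -0.90 (SE 0.07, adjusted p = 0.000329 by edgeR). In that fit 22.6% of genes passed, 10.9% as lower. After correction for the length behind the deposited FPKM instead, Lrp1 was at -0.97 (SE 0.09, adjusted p = 0.000357), and 24.2% of genes passed, 12% as lower. Lrp1 was the one member called in each of these fits. In the plot of change against exon length Lrp1 lies well under the running median.

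**Figure D1:**
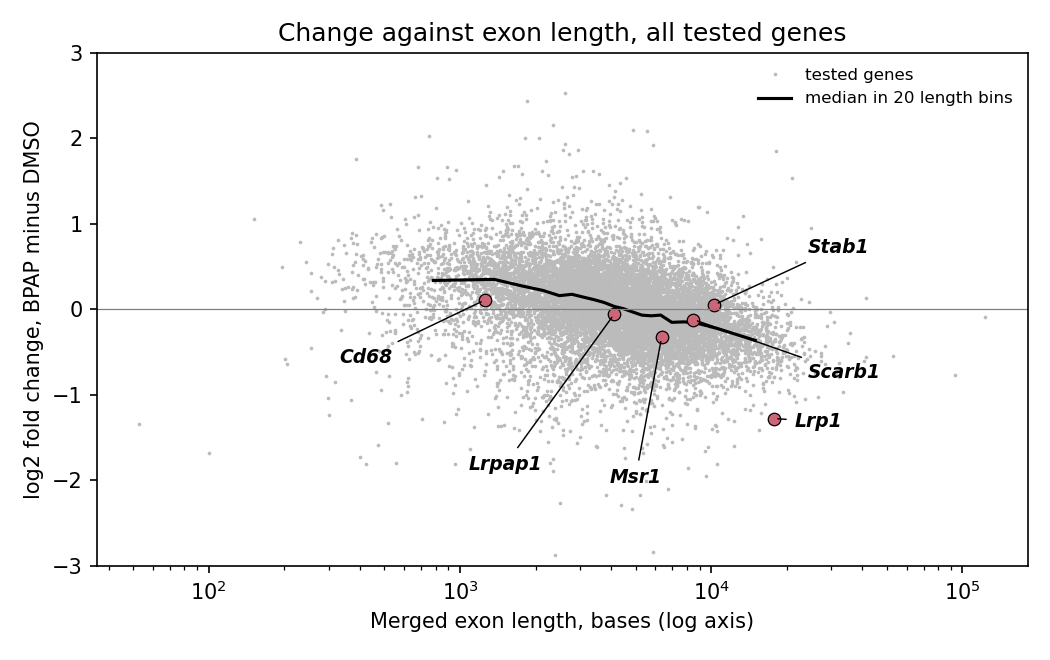
Each grey point is a tested gene, with merged exon length in bases on a log axis and the log2 fold change, BPAP minus DMSO, on the other axis; the black line joins the medians of 20 bins of length. Red points are the 6 tested receptor genes. Lrp1, at -1.28, lies below the line, and the others lie between -0.33 and 0.11. Drawn are 11675 genes, without 2 beyond the vertical axis and without those that have no exon length.

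Lrpap1, which encodes the chaperone RAP, did not follow its receptor. The gene lies on chromosome 5 (ENSMUSG00000029103, 35091501 to 35105766, minus strand). Lrpap1 stood at 163.8, 156.7 and 151.3 CPM in DMSO libraries 1, 2 and 3 and at 153.8, 143.1 and 157.6 in the BPAP libraries. The groups overlapped, with the lowest value in BPAP 2. The log2 fold change was -0.05 (SE 0.08, 95% interval -0.24 to 0.13, edgeR adjusted p = 0.651), so the interval runs from 0.848 to 1.09 times the DMSO level.

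The order of these 2 genes per unit of length differed between the groups in the deposited values. On the deposited FPKM scale, which divides by gene length, Lrp1 was at 58.1, 62.5 and 54.6 in DMSO libraries 1, 2 and 3 and at 23.2, 23.8 and 23.8 in BPAP. Lrpap1 was at 29.0, 28.8 and 28.0 FPKM in DMSO and at 27.4, 25.7 and 27.9 in BPAP, so on this scale, which has no TMM scaling, its groups lay just apart. The FPKM of Lrp1 was 2.00, 2.17 and 1.95 times that of Lrpap1 in the DMSO libraries and 0.845, 0.926 and 0.854 times in the BPAP libraries. On this scale, with no length correction between libraries, Lrp1 exceeded Lrpap1 in every DMSO library and was below it in every BPAP library. With counts divided by merged exon length in place of the length behind the FPKM, the ratio was 1.71 to 1.90 in DMSO and 0.740 to 0.811 in BPAP. Whether this turn of the order holds after a length correction was not tested. The corrected fits give changes between groups, and the excess in DMSO set beside them here was not corrected. Corrected for FPKM length, Lrp1 fell 1.87-fold relative to Lrpap1, and the uncorrected excess of its mean FPKM in DMSO was 2.04-fold. Corrected for exon length and GC, Lrp1 fell 1.70-fold relative to Lrpap1, and its uncorrected excess in DMSO per merged exon length was 1.79-fold.

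**Figure D2:**
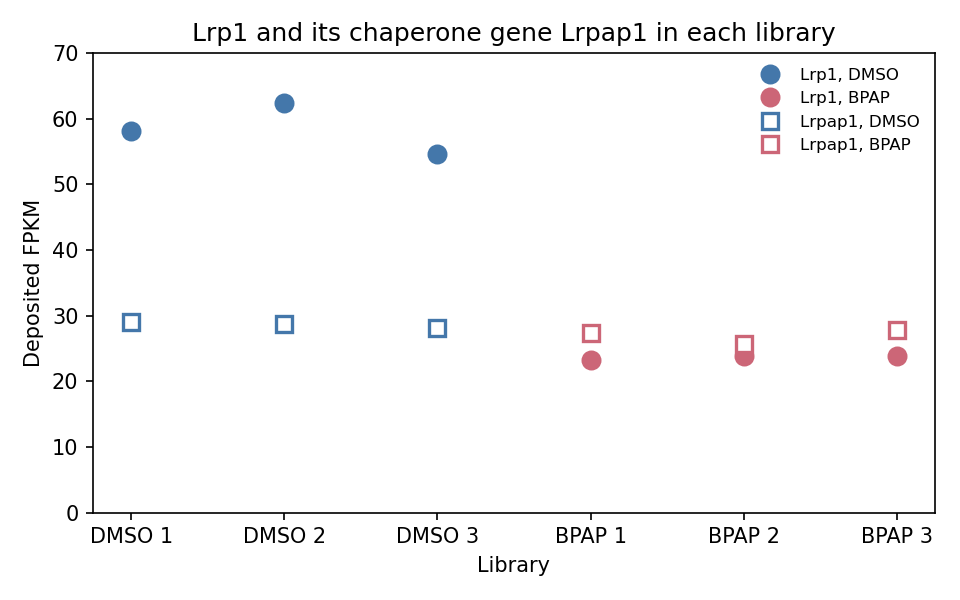
Deposited FPKM of Lrp1 (filled circles) and Lrpap1 (open squares) in each of the 6 libraries, DMSO in blue and BPAP in red. Lrp1 lies above Lrpap1 in the 3 DMSO libraries and below it in the 3 BPAP libraries, while Lrpap1 stays between 25.7 and 29.0 FPKM.

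Msr1 and Marco, the class A scavenger receptor genes among the members, were scarce or without counts in these cells. Msr1, on chromosome 8 (ENSMUSG00000025044, 39581700 to 39642678, minus strand), had 66, 62 and 63 counts in DMSO and 63, 32 and 53 in BPAP. BPAP 2 had the lowest count. In CPM these were 6.06, 4.85 and 4.44 against 5.13, 2.66 and 4.35, and the groups overlapped. The log2 fold change of -0.33 (SE 0.25, 95% interval -0.89 to 0.23, edgeR adjusted p = 0.340) did not pass, and without BPAP 2 it was -0.10 (adjusted p = 0.751). At this depth the interval leaves room for a level between 0.541 and 1.17 times that of DMSO. Marco, on chromosome 1 (ENSMUSG00000026390, 120474538 to 120505024, minus strand), had no count in any library. A count of 0 still permits up to 3 counts, or 0.271 CPM in the smallest library and 0.217 in the largest.

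Scarb1, the high-density lipoprotein receptor gene on chromosome 5 (ENSMUSG00000037936, 125277087 to 125341094, minus strand), was close to even in the DMSO libraries at 133.0, 132.3 and 128.8 CPM. The BPAP libraries stood at 114.3, 136.6 and 112.0 CPM. BPAP 1 and 3 were below every DMSO library and BPAP 2 was above them all. The log2 fold change was -0.12 (SE 0.10, 95% interval -0.33 to 0.10, edgeR adjusted p = 0.370). Without BPAP 2 it was -0.21 (adjusted p = 0.0594), still short of the threshold.

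Cd68, which marks macrophage lysosomes, was the most abundant member. It is a compact gene on chromosome 11 (ENSMUSG00000018774, 69664213 to 69666153, minus strand) with 1257 bases of merged exons. Its CPM values were 1656, 1400 and 1263 in DMSO libraries 1, 2 and 3 and 1651, 1476 and 1531 in the BPAP libraries. The BPAP values lay inside the DMSO range, whose top was DMSO 1. The log2 fold change was 0.11 (SE 0.11, 95% interval -0.13 to 0.35, edgeR adjusted p = 0.471). After the exon length and GC correction it was -0.25 (adjusted p = 0.156), so its sign depends on that choice.

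Stab1, the gene of stabilin-1 on chromosome 14 (ENSMUSG00000042286, 31139013 to 31168641, minus strand), was barely expressed, with 48, 62 and 50 counts in DMSO and 65, 50 and 46 in BPAP. In CPM it was at 4.41, 4.85 and 3.52 in DMSO and 5.29, 4.16 and 3.77 in BPAP, with overlapping groups. The log2 fold change was 0.05 (SE 0.21, 95% interval -0.42 to 0.53, edgeR adjusted p = 0.863). Its sign turned without DMSO 3 (-0.07) and without BPAP 1 (-0.10). Annotated exons of Stab1 and of Nt5dc2, on the opposite strand, share 112 bases, and reads from these could not be told apart unless strand was used. Exons of no other member overlap those of another gene of the table.

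Mertk, the apoptotic cell receptor gene on chromosome 2 (ENSMUSG00000014361, 128698956 to 128802894, plus strand), had 0 counts in all 6 libraries, with the same upper limit as Marco. Neither gene was tested, and no fold change is given for them.

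Per unit of length the members spanned a wide range. In DMSO the order of mean FPKM was Cd68 (702), Lrp1 (58.4), Lrpap1 (28.6), Scarb1 (10.8), Msr1 (1.29) and Stab1 (0.268), and no 2 neighbours overlapped. In BPAP it was Cd68 (743), Lrpap1 (27.0), Lrp1 (23.6), Scarb1 (9.74), Msr1 (1.00) and Stab1 (0.272), again with no overlap of neighbours. With counts divided by merged exon length, each group kept its order, but Msr1 and Stab1 overlapped in BPAP. The FPKM of Cd68 was 11 to 13.6 times that of Lrp1 in the DMSO libraries and 29.9 to 34.1 times in the BPAP libraries. The FPKM of Lrp1 was 5.07 to 5.69 times that of Scarb1 in DMSO and 2.15 to 2.66 times in BPAP.

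**Figure D3:**
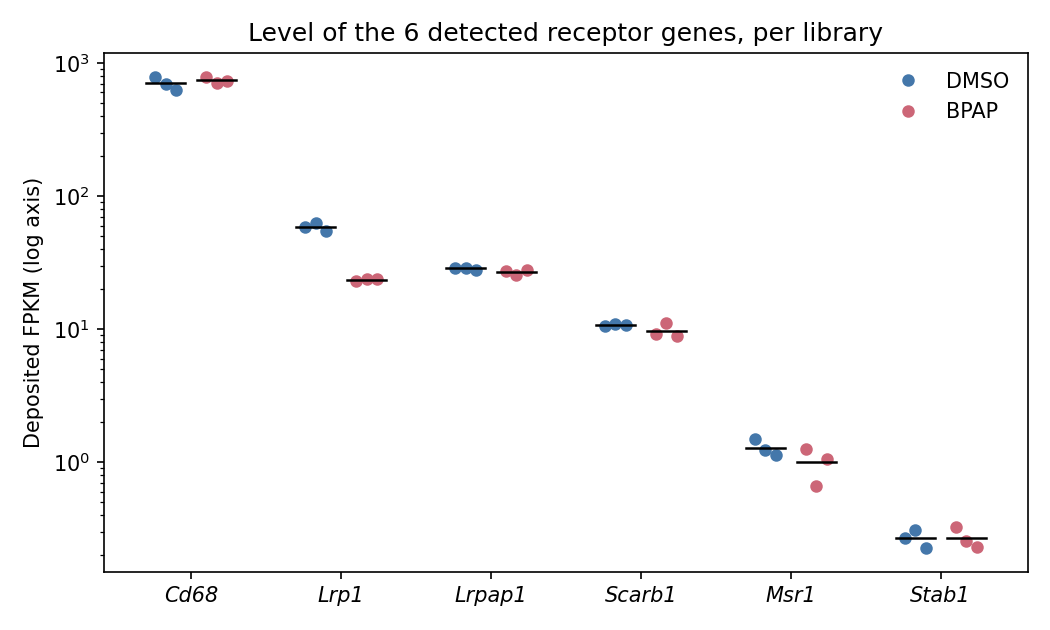
Deposited FPKM on a log axis for the 6 detected receptor genes, 1 point per library, DMSO in blue and BPAP in red, with a black bar at each group mean. Lrp1 shows the wide separation, from 58.4 to 23.6 on average; Lrpap1 lies just apart, and the points of Cd68, Scarb1, Msr1 and Stab1 overlap between groups.

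The spread between libraries also differed by gene. In BPAP the coefficient of variation of the CPM values was 1.71% for Lrp1, 4.97% for Lrpap1, 5.76% for Cd68, 11.2% for Scarb1, 17.9% for Stab1 and 31.1% for Msr1. In DMSO it was 7.32% for Lrp1, 3.97% for Lrpap1, 13.9% for Cd68, 1.70% for Scarb1, 15.9% for Stab1 and 16.5% for Msr1. The 2 genes with fewer than 100 counts in every library, Msr1 and Stab1, varied most in each group. The groups did not overlap for Lrp1 and overlapped in CPM for the other 5 tested members, where 49% of all tested genes did not overlap. The interval of Lrp1, which ends at -1.09, lies below the intervals of the other 5.

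**Figure D4:**
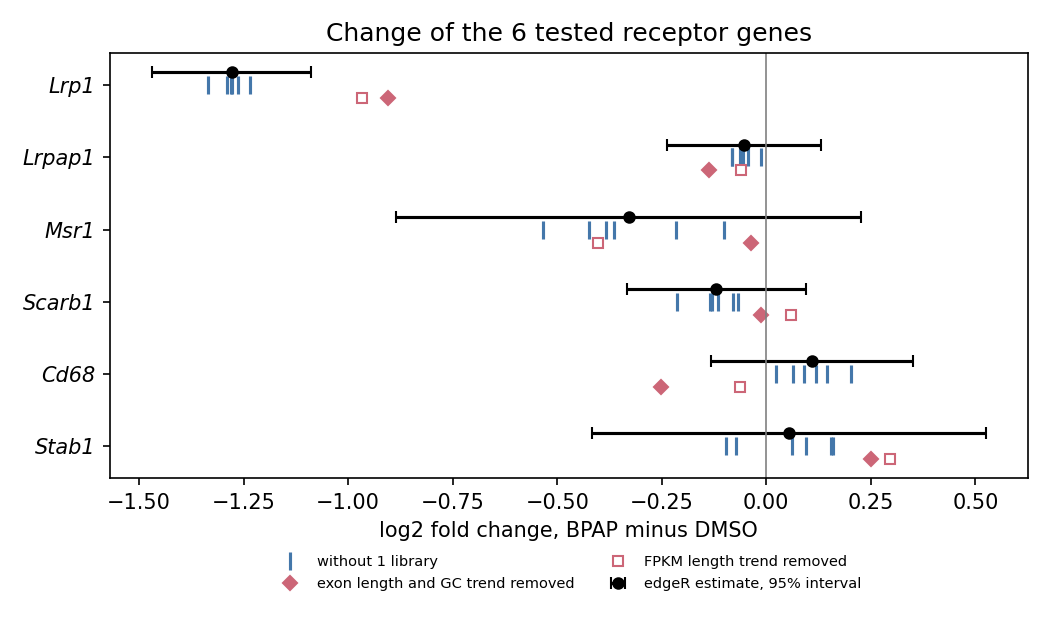
Log2 fold change, BPAP minus DMSO, of the 6 tested receptor genes. Black points with bars are edgeR estimates with 95% intervals, blue ticks the fits without 1 library, and red symbols the fits with a length trend removed. Lrp1 stays between -1.34 and -0.90, and estimates of the other genes lie between -0.535 and 0.295. Those of Msr1 and Lrpap1 are all below 0.

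Other genes of the LDL receptor family and of related sorting receptors were called about as often as tested genes in general. Of 19 listed genes 11 were tested, and 1 passed as higher and 2 as lower, 27.3% against 31.7% of all tested genes. That share, 16.2% higher and 15.5% lower, is also the one to set beside each list that follows. Their median log2 fold change was -0.14, against 0.02 over all tested genes. Lrp6, a Wnt co-receptor gene, fell 1.28-fold, from 107 ± 3.59 to 83.4 ± 2.96 CPM (SD, n = 3, here and for the genes that follow). Lrp8, a reelin and apolipoprotein E receptor gene, was 1.29-fold lower (edgeR adjusted p = 0.0344). Lrp12 rose 1.44-fold, from 34.1 ± 2.57 to 49.0 ± 3.42 CPM, and passed in all 17 alternatives. Lrp6 and Lrp8 are long genes, and corrected for exon length and GC they were at log2 fold changes of -0.01 and -0.20 (adjusted p = 0.929 and 0.203), so no gene of this list passed as lower. Lrp8 also did not pass without DMSO 1, DMSO 2, BPAP 2 or BPAP 3 (adjusted p = 0.0607 to 0.0974). The list had 1 lower gene without DMSO 1, DMSO 2 or BPAP 3, and 2 higher genes without BPAP 3. Vldlr, Lrp1b, Sorcs1 and Sorcs3 had 0 counts in every library.

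Genes that fold LRP1, cleave it or bind its tail moved both ways. Of 16 tested, 4 passed as higher and 4 as lower, 50% in all, with a median log2 fold change of 0.00. Hsp90b1, which encodes the endoplasmic reticulum chaperone GRP94, fell 1.51-fold, from 3030 ± 79.9 to 2000 ± 359 CPM, with BPAP 2 the lowest at 1602. The gene of the endocytic adaptor Numb fell 1.70-fold (log2 fold change -0.77, SE 0.15, edgeR adjusted p = 0.00435). Snx17, whose product binds the LRP1 tail and returns it from endosomes to the surface, rose 1.43-fold, from 64.5 ± 5.76 to 92.2 ± 9.89 CPM. Psen2, a catalytic subunit gene of gamma-secretase, rose 1.35-fold, and its adjusted p was 0.0501 without DMSO 1. Without DMSO 1 or DMSO 2, 1 and 2 genes of this list passed as higher, and corrected for exon length and GC 2 passed as lower.

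Among 12 tested genes of LRP1 ligands, 4 passed as lower and 1 as higher, 41.7% against 31.7% of all tested genes. Their median log2 fold change was -0.25. Lpl, the lipoprotein lipase gene, had the largest change of those named here, from 695.7, 626.6 and 621.1 CPM in DMSO to 267.2, 206.9 and 282.8 in BPAP. The BPAP libraries were all below the DMSO libraries, as they were for Lrp1. Calr, which encodes calreticulin, a chaperone that serves as an uptake signal on dying cells, fell 1.56-fold, from 2450 ± 122 to 1570 ± 140 CPM (edgeR adjusted p = 0.00147). Plau, the gene of urokinase, fell 1.41-fold, with an adjusted p of 0.0543 without DMSO 2. Mif, a cytokine gene, passed as 1.19-fold higher (adjusted p = 0.0468) and was not called in 12 of 17 alternatives. Its log2 fold change turned to -0.13 after the exon length and GC correction, and it did not pass without any 1 of DMSO 1, DMSO 2, DMSO 3, BPAP 2 or BPAP 3. Without DMSO 2, 2 ligand genes passed as lower.

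Other scavenger and endocytic receptor genes included larger rises. Of 13 tested, 3 passed as higher and 2 as lower, 38.5%, with a median log2 fold change of 0.02. Cd14, the lipopolysaccharide co-receptor gene, stood at 87.9, 98.6 and 96.9 CPM in DMSO and at 200.6, 332.6 and 164.5 in BPAP, where BPAP 2 was the highest. It rose 2.46-fold (edgeR adjusted p = 0.0121), and its adjusted p was 0.0590 without DMSO 1. Plaur, the urokinase receptor gene, rose 2.15-fold from 6.80 ± 0.92 to 14.6 ± 2.99 CPM. Lgals3, the gene of galectin-3, rose 1.71-fold, from 834 ± 43.3 to 1430 ± 40.9 CPM. Igf2r, whose product carries lysosomal enzymes and clears insulin-like growth factor 2, fell 1.76-fold, from 275 ± 13.8 to 156 ± 13 CPM. Without any 1 of the DMSO libraries, or after either length correction, 1 gene of this list passed as lower. The scavenger receptor genes Cd163, Olr1 and Scarf2, the mannose receptor family genes Mrc2 and Ly75, and Megf10 had 0 counts in every library.

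In the list of apoptotic cell uptake, to which Mertk belongs by function, 4 of 20 tested genes passed as higher and 2 as lower, 30%, with a median log2 fold change of 0.08. Itgb5, an integrin subunit gene for apoptotic cell binding, rose 1.53-fold, from 59.6 ± 1.01 to 90.9 ± 7.70 CPM. Cd300a, the gene of an inhibitory receptor for exposed phospholipids, rose 1.95-fold, from 46.1 ± 3.29 to 90.0 ± 11.4 CPM. The Rac activator genes Dock1 and Dock2 fell 1.57-fold and 1.43-fold. Without any 1 library other than BPAP 2, 2 genes of this list passed as higher. Timd4, Havcr1 and C1qa had 0 counts in every library.

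The machinery that internalises these receptors was represented by 33 tested genes of clathrin-mediated endocytosis, of which 8 passed as lower and 2 as higher, 30.3%. Their median log2 fold change was -0.08. Cd2ap, an adaptor gene, fell 1.51-fold, the scaffold genes Itsn1 and Itsn2 1.44-fold and 1.42-fold, and Eps15l1 1.37-fold. Corrected for exon length and GC, 1 gene of the list passed as lower, and Cd2ap, Itsn1 and Itsn2 did not pass (log2 fold changes -0.00, -0.09 and -0.19). Eps15l1 passed in all 17 alternatives. Without 1 library, 4 to 7 genes were lower and 0 or 1 higher, with 4 lower without DMSO 1 and 5 without DMSO 2 or BPAP 3.

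The list of lysosomal membrane protein genes covers the compartment of CD68. Of 15 tested, 6 passed as higher, 1 as lower and 8 did not pass, 46.7% called, with a median log2 fold change of 0.06. Cd63, a tetraspanin gene of late endosomes, rose 1.66-fold, from 151 ± 7.15 to 251 ± 30.5 CPM. Npc2, whose product carries cholesterol within the lysosome and is soluble, rose 1.37-fold and Laptm4a 1.42-fold. Mcoln1, the gene of a lysosomal calcium channel, fell 1.37-fold, from 77.4 ± 6.80 to 56.5 ± 2.05 CPM. Without DMSO 2, and in the fit corrected for exon length and GC, 3 genes passed as higher, and in that corrected fit Laptm4a did not (edgeR adjusted p = 0.0654).

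Among 16 tested genes of transcription factors that act on macrophage receptor genes, 4 passed as higher and 1 as lower, 31.2%, with a median log2 fold change of 0.17. Cebpb rose 1.84-fold, from 102 ± 9.84 to 188 ± 12.3 CPM. Nr1h2, which encodes the oxysterol receptor LXR beta, rose 1.40-fold and Cebpa 1.47-fold, the latter from 10.3 ± 1.87 CPM. Mitf, a factor of lysosomal and osteoclast genes, fell 1.43-fold, from 55.9 ± 3.02 to 39.0 ± 4.35 CPM. Cebpa did not pass once corrected for exon length and GC (edgeR adjusted p = 0.140) or without DMSO 1, DMSO 2 or BPAP 1 (0.0608 to 0.0878). Without DMSO 2, without BPAP 1, and with that correction, 2 genes of the list passed as higher.

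**Figure D5:**
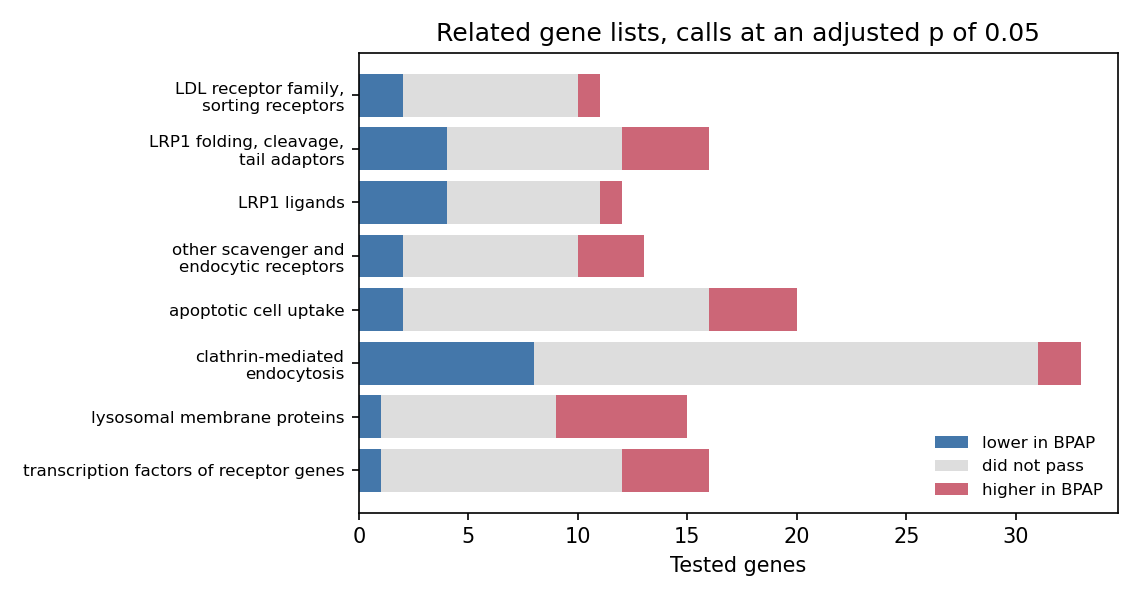
Tested genes in each of 8 related lists, split by their call at an adjusted p of 0.05: lower in BPAP in blue, not called in grey and higher in red. Clathrin-mediated endocytosis had 8 lower and 2 higher of 33, and lysosomal membrane proteins 1 lower and 6 higher of 15. Over all tested genes 15.5% were lower and 16.2% higher. Corrected for exon length and GC, which the bars are not, 1 clathrin gene passed as lower and 3 lysosomal genes as higher.

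The 5 genes whose profile was most like that of Lrp1 were Acap1, Itgb2, Adamts10, Cntrl and Cybb. Likeness was the root mean square difference of centred log2 CPM over the 6 libraries, among 8765 genes with a mean of at least 100 counts, and the values were 0.116, 0.122, 0.141, 0.144 and 0.156. Itgb2, which encodes the beta-2 integrin chain of leukocytes, was 2.53-fold lower (log2 fold change -1.34, SE 0.11). Acap1, the gene of a GTPase-activating protein for ARF6, was 2.37-fold lower, and Cybb, which encodes the catalytic subunit of the phagocyte NADPH oxidase, 2.14-fold lower. Adamts10 and Cntrl were 2.06-fold and 2.13-fold lower. Their merged exons range from 3052 bases in Itgb2 to 10194 in Cntrl, all shorter than those of Lrp1.

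The labelled cell type was checked against marker genes. All 10 macrophage markers were tested, with a summed level of 5570 to 5870 CPM in DMSO and 5970 to 6250 in BPAP. Of these, 3 passed as higher and 2 as lower: the Fc receptor gene Fcgr1 rose 2.35-fold and the lysozyme gene Lyz2 1.28-fold, while Csf1r, the receptor gene for macrophage colony-stimulating factor, fell 1.33-fold and Ptprc, the gene of CD45, 1.56-fold. The third rise was in Adgre1. The calls of Lyz2 and Ptprc were lost after the exon length and GC correction (log2 fold changes 0.02 and -0.01), and Csf1r did not pass without DMSO 2 or BPAP 1 (edgeR adjusted p = 0.0520 and 0.0502). Markers of fibroblasts, epithelial cells, endothelial cells, T cells and neutrophils summed to at most 1.06 CPM per list in any library, and no gene of these lists exceeded 12 counts. Pdgfra, Epcam, Cdh5, Cd3e and Ly6g were at 0 in every library. Dendritic cell markers summed to 12.6 to 14 CPM in DMSO and 8.41 to 11.2 in BPAP, with Flt3 at 0 and Itgax 1.42-fold lower (adjusted p = 0.0420), a call lost without any 1 library other than BPAP 1. Their part in the results was not tested. In bulk RNA, fewer cells with a transcript and less transcript per cell cannot be told apart, for Lrp1 as for the other genes.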

How the data were processed

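RNA of 6 RAW 264.7 libraries, 3 per treatment, was extracted with TRIzol and made into libraries with the VAHTS Universal V6 kit, per the labels' protocols. The authors deposited 1 table that holds, for every gene and library, raw counts and FPKM. HISAT2 2.0.4, StringTie 1.3.3b and edgeR with GRCm38 are named in the submitters' processing notes, with no role or order. The handling of strand and of multi-mapping reads is not given in the sources used here. The gene length implied by counts, FPKM and library totals was equal between libraries to a relative spread of 8.48e-06. Totals ran from 11084705 to 13806559 counts. The limit for a count of 0 was 3 counts and covers counting error only.

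Groups came from the treatment label and replicate numbers from the titles. edgeR 4.0.16 (R 4.3.3) filtered low counts by its default, left 11711 genes, scaled by TMM and ran the quasi-likelihood test with treatment as the only term. The code was tested on simulated counts. Errors and 95% intervals come from the F statistic of each gene. Fold sizes are from the fit, and CPM are on TMM-scaled library sizes. Exon lengths and GC content are from GENCODE M21 (same build), with each base counted once. The trend with length and GC was a lowess curve per library of span 0.3, entered as an offset. The fit on FPKM used limma 3.58.1 on log2 of the deposited FPKM plus 1 or plus 0.1, with a minimum mean FPKM of 1. Other alternatives were DESeq2 1.42.0, its size factors, upper quartile scaling, limma-voom, no filter, leaving out each library, and a block for the replicate number.

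The members, lists and alternatives were chosen with earlier results of these data known. Beside the members, each list's genes named are the up to 4 with the smallest p among those that passed, and the 5 most like Lrp1 exclude predicted genes and pseudogenes. Adgre1 and the genes given at 0 were named after their values were seen. No 2 libraries of the same group agreed within sampling noise (smallest chi-square per degree of freedom 6.98).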

Additional observations from a re-analysis of the deposited data

How the results depend on the processing

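Lrp1 passed as lower and no other member passed in any of the 17 alternatives that gave a value. Its log2 fold change ranged from -1.34 to -0.90 (highest adjusted p 0.00163). Uncalled members changed sign in some fits. Corrected for FPKM length, Scarb1 was at 0.058 and Cd68 at -0.064. With the replicate block added to that correction, they were at 0.051 and -0.055. Corrected for exon length and GC, Cd68 was at -0.25. Mif, a ligand gene called higher without correction, turned to -0.12, -0.12 and -0.13 in these fits, in that order. Without 1 library, Stab1 ranged from -0.10 to 0.16. Stab1 was below the minimum FPKM, so it was not in the limma fits on FPKM.

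Whether replicate numbers pair the libraries was not settled. Deviations of same-numbered libraries from their group means correlated only weakly across genes, at 0.101, 0.0542 and 0.00985. Each BPAP library correlated best with the DMSO library of its number, by little for BPAP 2 (0.0454 with DMSO 3) and BPAP 3 (0.00931 with DMSO 1). DMSO 3 correlated best with BPAP 2. With the replicate block Lrp1 was at -1.28 (adjusted p = 0.000303), and 2149 genes were higher and 2087 lower, against 1901 and 1814 without it. Without 1 library, 1244 to 1654 genes were higher and 1235 to 1660 lower.

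LDL receptor family genes called higher numbered 2 with upper quartile scaling, the block, or the exon length and GC correction. No gene of that family was lower (0) after any length correction. Of the folding, cleavage and tail adaptor genes, 2 were higher in the limma fits on FPKM, and 2 lower after either length correction without the block. No LRP1 ligand gene was higher (0) with DESeq2 size factors, without a filter, in the limma fits on FPKM, or after any length correction. Apoptotic uptake genes called higher numbered 2 with log2(FPKM + 0.1). Clathrin genes numbered 5 higher and 3 lower after the FPKM length correction, with or without the block, and 1 lower after the exon length and GC correction, which left 3 lysosomal and 2 transcription factor genes higher. Without 1 library, the counts of higher genes were 1 to 2 for the LDL receptor family, 1 to 4 for folding, 0 to 1 for ligands, 2 to 4 for apoptotic uptake, 0 to 1 for clathrin, 3 to 6 for lysosomal and 2 to 4 for transcription factor genes. Counts of lower genes were 1 to 2 for the LDL receptor family, 2 to 5 for ligands, 1 to 2 for other scavenger receptors and 4 to 7 for clathrin. The cause of these differences was not tested.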
